A study of Arabidopsis thaliana with 22 samples.

Results

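The carotene backbone of Arabidopsis thaliana is made by 7 plastid enzymes, and the transcript of each is followed here: phytoene synthase (PSY, AT5G17230), phytoene desaturase (PDS, AT4G14210), 15-cis-zeta-carotene isomerase (ZISO, AT1G10830), zeta-carotene desaturase (ZDS, AT3G04870), carotenoid isomerase (CRTISO, AT1G06820), lycopene beta-cyclase (LCYB, AT3G10230) and lycopene epsilon-cyclase (LCYE, AT5G57030). They were taken by locus identifier, 7 of 33602 genes in the count table, and all 7 were among the 23011 genes that passed the filter on low counts. Carotenoids begin when PSY joins a pair of geranylgeranyl diphosphates into phytoene, a step regarded as the entry point and the main control of the pathway. PDS and ZDS insert double bonds and ZISO and CRTISO turn the cis bonds, which gives red lycopene. The cyclases then split the pathway: LCYB closes beta rings, and LCYE closes an epsilon ring on the branch that leads to lutein, the main xanthophyll of leaf light-harvesting complexes. Etiolated seedlings hold a small carotenoid pool in their etioplasts, and carotenoids are made together with chlorophyll when light turns these into chloroplasts, where they harvest light and protect against photo-oxidation.

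RNA sequencing covered 22 libraries in 11 groups of 2, all from wild-type Col-0 seedlings aged 6 days. Every seedling had germinated after a short white-light pulse and had then grown in darkness at about 20 °C on medium with 2% sucrose, so darkness and sugar were shared by all groups. In the blue and the red series, seedlings were sampled at 0 h, after 1 h or 6 h of continuous light, or after 6 h more of darkness, while in the white series the 0 h, 6 h dark and 6 h light groups were used and no 1 h group of that series was used here. Whole seedlings were labelled as the source, and it is not stated whether the 2 libraries of a group came from separate cultures, so p-values measure the spread between these libraries, which may be technical.

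Total counts ran from 35000731 to 138804638 per library. Light libraries were deeper (59054903 to 138804638) than dark ones (35000731 to 72685876), and the labels give 2 libraries per sequencing pool for light and 4 for dark, so that pool size and depth go with light. PORA, PIL1 and PHYA, 3 genes of etiolated seedlings, were at 0 in no library. Their summed level was 1402 to 2623 CPM (counts scaled to a normalised library size of 1e+06) in darkness and 361 to 768 CPM after 6 h of light. At 6 h 3 of 3 were lower in the mean of the colours, beside 25.9% of all genes. On the second principal component of all genes, 9.85% of the variance, the 4 blue-series libraries numbered 1 stood at 30.6 to 56.5, and the other 18 libraries lay lower, between -42.0 and 16.5. Replicate 2 of red 0 h was lowest there. The calls that rest on these libraries are also given without them. In whole seedlings, fewer cells of a type and less RNA per cell cannot be told apart.

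In continued darkness no change of the 7 transcripts was called over the 6 h of the experiment. From 0 h to 6 h dark, averaged over the 3 series, the log2 changes of the members lay between -0.03 (LCYB) and 0.26 (LCYE), and 0 of 7 were called, meaning an adjusted p under 0.05 in edgeR's quasi-likelihood F test with Benjamini-Hochberg adjustment over all 23011 genes. Over all genes the same comparison called 0%, with 769 genes at an unadjusted p under 0.05, and DESeq2 called 0 genes as well. The 0 h libraries of the 3 series also gave 0 called members against a background of 0%, although 2206 genes had an unadjusted p under 0.05 and DESeq2 called 76. PSY at 0 h was 64.5 and 49.2 CPM in the blue series, 42.7 and 24.3 CPM in the red series and 46.0 and 51.4 CPM in the white series, with an unadjusted p of 0.0268 for a difference between series. ZISO (0.0165) and ZDS (0.0195) were also under 0.05 before adjustment, so 3 of 7 members were.

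Set per kilobase of annotated exon, so that genes can be compared, the dark levels had a stable order. ZDS had the highest level in 9 of 12 dark libraries and LCYB in the other 3, with medians of 30.1 and 27.7 CPM per kb and overlapping ranges. PSY was the third in 11 of 12, at a median of 19.9 CPM per kb, and PDS stood just below at 16.8 CPM per kb with a range that overlapped that of PSY. LCYE had a median of 12.4 CPM per kb. CRTISO, at 7.44 CPM per kb, and ZISO, at 5.90 CPM per kb, were the low end, and ZISO was lowest in 12 of 12. After 6 h of light PSY led in 6 of 6 libraries at a median of 83.4 CPM per kb, and ZDS was second in 6 of 6 at 50.7 CPM per kb. LCYB (37.9), LCYE (35.2) and PDS (34.2 CPM per kb) then had overlapping ranges, and CRTISO and ZISO stayed lowest at 12.2 and 13.1 CPM per kb. LCYE was below LCYB in 12 of 12 dark libraries. After 6 h of light their ranges overlapped, but within libraries LCYE was above LCYB per kb only in replicate 2 of red light.

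**Figure D1:**
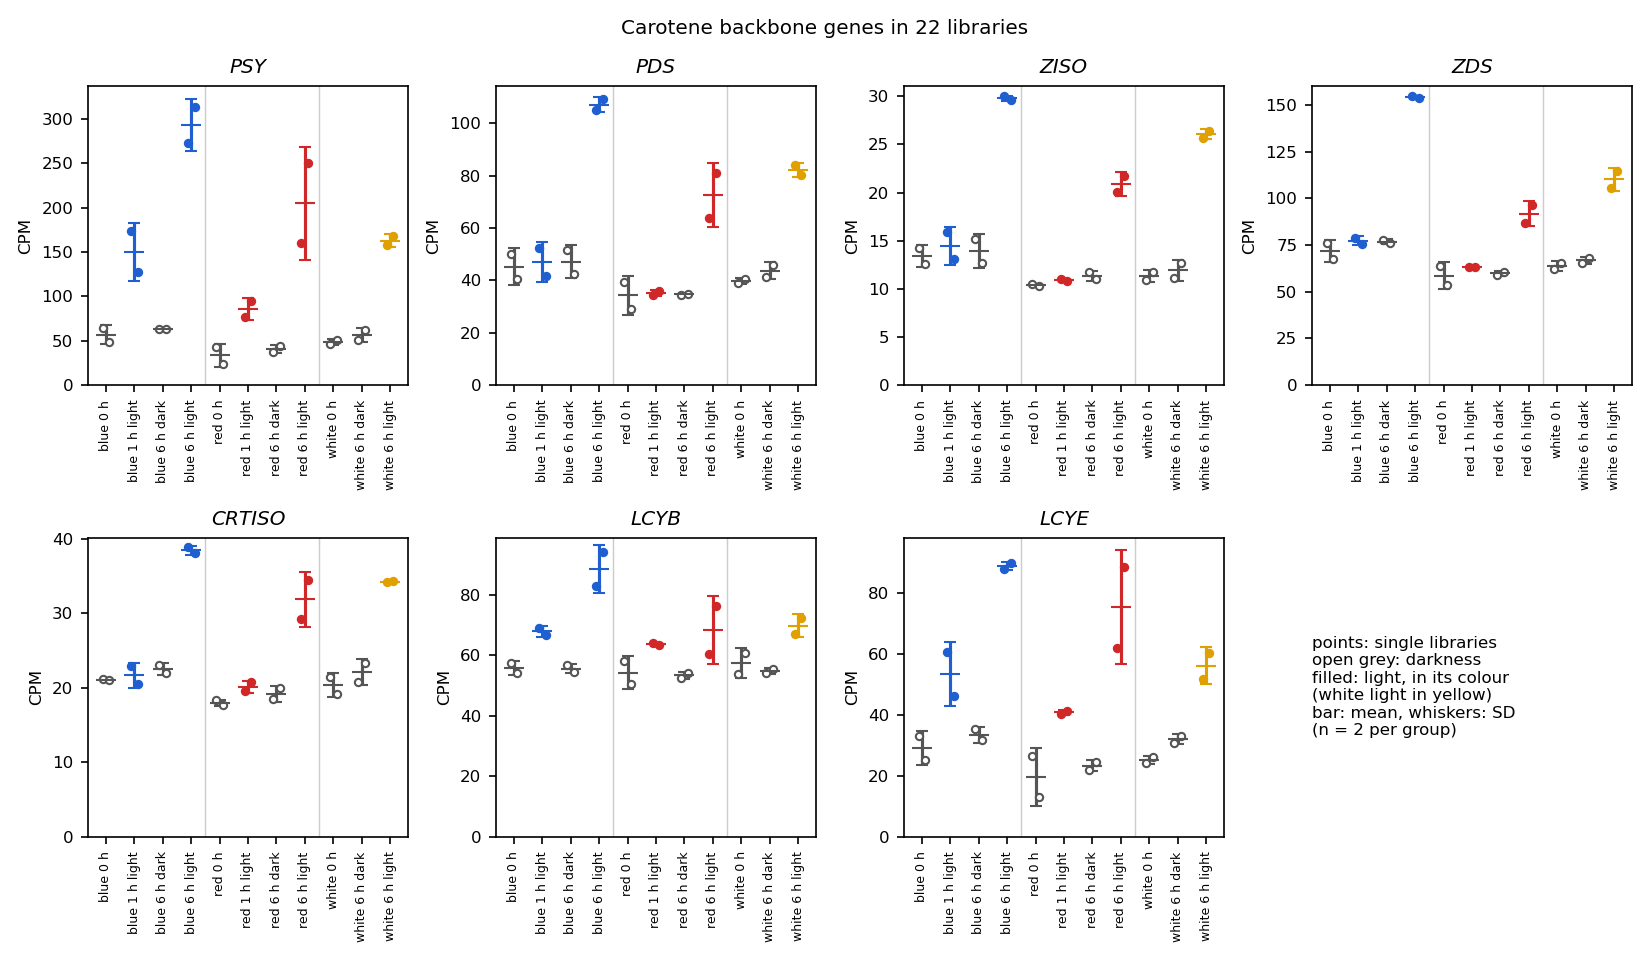
Level of each of the 7 transcripts in all 22 libraries, in CPM on a linear axis from 0, by group; points are libraries, bars the mean and whiskers the SD of 2 libraries. PSY and LCYE stand above their 0 h libraries after 1 h of blue or red light, whereas PDS, ZISO, ZDS and CRTISO stand clear of darkness at 6 h.

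PSY and LCYE were the members called higher after 1 h of light in both colours, LCYE close to the threshold in blue. The stretches before their genes are shown because these transcripts moved together. LCYB and PDS are set beside them as a cyclase and a desaturase that were not called at 1 h in either colour alone. LCYB was called in the average of both colours, given below. Each stretch is the 250 bases upstream of the annotated gene start in RefSeq TAIR10.1, read 5′ to 3′ on the strand of the gene; capitals mark ATCTA, or TAGAT where it lies on the other strand, a motif described in the Arabidopsis PSY and PDS promoters. The stretches lie at chr5:5662998-5663247 on the minus strand for PSY, chr5:23076870-23077119 on the plus strand for LCYE, chr3:3166039-3166288 on the minus strand for LCYB and chr4:8195321-8195570 on the minus strand for PDS.
PSY: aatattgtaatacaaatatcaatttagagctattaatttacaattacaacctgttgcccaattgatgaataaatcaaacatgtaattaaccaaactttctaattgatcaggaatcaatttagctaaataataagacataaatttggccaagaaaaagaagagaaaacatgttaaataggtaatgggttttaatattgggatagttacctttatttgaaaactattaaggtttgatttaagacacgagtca
LCYE: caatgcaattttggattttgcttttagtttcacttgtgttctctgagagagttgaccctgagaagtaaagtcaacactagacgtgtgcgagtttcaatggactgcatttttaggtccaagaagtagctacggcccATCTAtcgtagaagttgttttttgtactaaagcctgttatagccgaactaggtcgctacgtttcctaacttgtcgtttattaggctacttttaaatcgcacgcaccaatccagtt
LCYB: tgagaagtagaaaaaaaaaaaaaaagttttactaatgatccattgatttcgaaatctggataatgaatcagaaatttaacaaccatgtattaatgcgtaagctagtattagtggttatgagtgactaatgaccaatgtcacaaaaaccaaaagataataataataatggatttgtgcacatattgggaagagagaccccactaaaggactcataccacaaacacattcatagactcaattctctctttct
PDS: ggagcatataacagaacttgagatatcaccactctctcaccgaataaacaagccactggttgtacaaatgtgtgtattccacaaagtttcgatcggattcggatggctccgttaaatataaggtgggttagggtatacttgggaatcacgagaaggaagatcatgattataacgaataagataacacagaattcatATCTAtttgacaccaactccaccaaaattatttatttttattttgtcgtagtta
4 motifs linked to light or carotenoid genes were searched on both strands from 250 bases before to 50 bases after the start of each gene. The G-box CACGTG was in 0 of the 7 windows and in 7.68% of 27443 windows over all genes. The related PIF-binding element CACATG was in 0 of 7 (12.9% of all windows), and the I-box GATAAG also in 0 of 7 (14.6%). ATCTA was in 5 of 7 windows, those of PDS, ZISO, ZDS, CRTISO and LCYE, against 54% of all windows, and CRTISO held 3 overlapping copies. These letters were thus not in the window of PSY or LCYB, and bases further upstream were not searched. Any link of the motif to the timing of the response was not tested. Of the 7 genes, 6 have more than 1 annotated transcript, and only the outermost gene start was used.

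After 1 h of blue light, 2 of 7 members were called higher and 0 lower, beside 8.13% of all genes called (5.35% higher). PSY was at 64.5 and 49.2 CPM at 0 h and at 173 and 127 CPM after 1 h. Both light libraries were above both dark libraries, and the lower light library was above any dark PSY value of the study. The rise was 2.64-fold, a log2 change of 1.40 (SE 0.25, adjusted p = 0.00232, edgeR), larger than that of 97.3% of all genes. LCYE stood at 33.2 and 25.3 CPM at 0 h and at 60.8 and 46.2 CPM after 1 h. These groups did not overlap either, and the log2 change was 0.87 (SE 0.25, adjusted p = 0.0486, edgeR), close to the threshold. LCYE's call in blue was lost under 21 of 32 other settings, with changes of 0.66 to 1.06 when single libraries were left out and an adjusted p (edgeR) of up to 0.389.

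After 1 h of red light the same pair was called, 2 of 7 higher and 0 lower, beside 4.61% of all genes (3.72% higher). PSY went from 42.7 and 24.3 CPM to 77.3 and 94.7 CPM, with all light values above the dark ones. Its log2 change was 1.36 (SE 0.26, adjusted p = 0.00449, edgeR), or 2.57-fold. LCYE was at 26.5 and 12.9 CPM at 0 h and at 40.3 and 41.4 CPM after 1 h. Here the light libraries were close to each other and the dark ones far apart, and the log2 change was 1.06 (SE 0.26, adjusted p = 0.0246, edgeR). Replicate 2 of red 0 h was the lowest library of the study in both genes. Without it the changes were 1.01 for PSY (adjusted p = 0.0731, edgeR) and 0.63 for LCYE (adjusted p = 0.232, edgeR), and neither was called. Without replicate 1 of red 0 h they were 1.82 and 1.66. Leaving out replicate 2 of red 1 h also ended both calls, and leaving out replicate 1 of red 1 h ended that of LCYE.

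The 4 blue-series libraries numbered 1 also bore on the 1 h calls. Without them PSY in blue light had nearly the same change, 1.37 (SE 0.37, adjusted p = 0.0842, edgeR), but neither PSY nor LCYE was called in blue, and in red PSY alone was (adjusted p = 0.0130, edgeR), with LCYE at an adjusted p of 0.0506. Averaging both colours, a comparison added after the data had been seen, gave a log2 change of 1.38 for PSY (SE 0.18, 2.61-fold, adjusted p = 8.00e-05, edgeR) and of 0.97 for LCYE (SE 0.18, 1.95-fold, adjusted p = 0.00187, edgeR). In that average LCYB was called too, with a change of 0.26 (SE 0.08, adjusted p = 0.0420, edgeR), so that 3 of 7 members were higher beside 11.5% of all genes called (7.75% higher).

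LCYB alone in each colour was not called. It was at 57.3 and 54.2 CPM at 0 h and 69.1 and 66.6 CPM after 1 h of blue light, and at 58.0 and 50.3 CPM and 63.9 and 63.5 CPM in red. The light libraries were above the dark ones in both colours, with changes of 0.28 (adjusted p = 0.152, edgeR) and 0.23 (adjusted p = 0.341, edgeR). The desaturases and isomerases had smaller changes at 1 h: PDS, ZISO, ZDS and CRTISO lay between 0.04 and 0.11 in blue light and between 0.04 and 0.16 in red light, and none was called. PDS, for example, was at 50.2 and 40.4 CPM at 0 h and 52.5 and 41.8 CPM after 1 h of blue light, and ZDS at 76.0 and 67.6 CPM and 79.0 and 75.7 CPM. Light and dark libraries overlapped for all 4 genes in blue and for PDS and ZDS in red, whereas for ZISO and CRTISO both red light libraries were above both dark ones. The share of all genes separated in this way at 1 h was not counted, so the separations of PSY, LCYE, LCYB, ZISO and CRTISO at 1 h have no background beside them. In counts simulated from these libraries, the blue 1 h comparison recovered 81% of genes changed by 1 on the log2 scale. The share for changes of 0.5 was 11%. The simulation held 200 changed genes with a spread set by level alone, so that share does not carry over to single members. These 4 genes had SEs in blue of 0.16 (PDS), 0.11 (ZISO), 0.09 (ZDS) and 0.09 (CRTISO), and their own recovery was not simulated. The difference between genes in their 1 h response was not tested, other than for the cyclases below. The median member changed by 0.11 in blue and 0.16 in red, and the median of all genes by 0.02 and 0.00.

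At 6 h all 7 members were higher in light, in each colour. In blue light 7 of 7 were called higher beside 37.4% of all genes called (22.8% higher), in red light 7 of 7 beside 27.7% (17.6% higher), in white light 7 of 7 beside 41.6% (23.2% higher), and over the mean of the colours 7 of 7 beside 58.4% (32.5% higher, 25.9% lower). The median member had a log2 change of 1.03 in the mean of the colours, and the median of all genes was 0.02. For each member, all 6 light libraries lay above all 6 dark libraries at 6 h, as was so for 18.8% of all genes. Cutting every library down to the lowest total left 7 of 7 called in each of these comparisons, as did leaving out the 4 blue-series libraries numbered 1.

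PSY had the largest change of the 7 in each colour. It went from 63.8 and 63.7 CPM in 6 h dark to 273 and 314 CPM in blue light, from 37.8 and 44.4 CPM to 160 and 250 CPM in red light, and from 50.7 and 61.9 CPM to 158 and 168 CPM in white light. The lowest light library, in white, was above the highest dark library, in blue, with a wide gap between them. PSY was 4.60-fold higher in blue (adjusted p = 1.74e-05, edgeR), 4.99-fold in red (log2 change 2.32, adjusted p = 1.92e-05) and 2.90-fold in white (log2 change 1.53, adjusted p = 2.83e-04), each with an SE of 0.26 on the log2 scale. Over the mean of the colours PSY was 4.05-fold higher (log2 2.02, SE 0.15, adjusted p = 4.20e-08, edgeR), above 97.3% of all genes.

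PDS and ZISO, which turn phytoene into zeta-carotene and isomerise it, rose 2.08- and 2.04-fold in the mean of the colours. PDS was at 51.7 and 42.6 CPM in the dark and 105 and 109 CPM in blue light, at 34.3 and 34.9 CPM and 63.9 and 81.1 CPM in red, and at 41.4 and 45.9 CPM and 84.2 and 80.4 CPM in white. Its mean log2 change was 1.06 (SE 0.09, adjusted p = 2.30e-07, edgeR). ZISO moved from 15.2 and 12.7 CPM to 30.0 and 29.6 CPM in blue light, from 11.7 and 11.01 CPM to 20.0 and 21.7 CPM in red and from 11.2 and 12.7 CPM to 25.7 and 26.4 CPM in white. Its mean log2 change was 1.03 (SE 0.06, adjusted p = 8.90e-09, edgeR), with light libraries close together in each colour.

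ZDS and CRTISO, which complete lycopene, had smaller changes. ZDS was at 77.7 and 75.9 CPM in the dark and 155 and 154 CPM in blue light, at 58.9 and 60.7 CPM and 86.9 and 96.5 CPM in red, and at 65.4 and 68.1 CPM and 106 and 115 CPM in white. The log2 changes were 1.01, 0.62 and 0.72, with a mean of 0.78 (SE 0.05, adjusted p = 1.57e-08, edgeR). CRTISO was at 22.5 ± 0.77 CPM (mean and SD, n = 2) in the dark and 38.9 and 38.1 CPM in blue light, at 18.5 and 19.9 CPM and 29.3 and 34.5 CPM in red, and at 20.8 and 23.4 CPM and 34.2 and 34.3 CPM in white. Its changes were near each other across colours, 0.77, 0.73 and 0.63, with a mean of 0.71 (SE 0.05, adjusted p = 5.48e-08, edgeR).

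The cyclases differed in size of response. LCYE was at 35.3 and 31.7 CPM in the dark and 88.1 and 89.98 CPM in blue light, at 22.03 and 24.6 CPM and 62.1 and 88.7 CPM in red, and at 30.9 and 33.2 CPM and 51.9 and 60.6 CPM in white. Its log2 changes were 1.41, 1.69 and 0.81, with a mean of 1.30 (SE 0.15, 2.47-fold, adjusted p = 2.96e-06, edgeR). LCYB was at 56.7 and 54.4 CPM in the dark and 82.8 and 94.2 CPM in blue light, at 52.5 and 54.1 CPM and 60.4 and 76.4 CPM in red, and at 54.2 and 55.6 CPM and 67.1 and 72.5 CPM in white. Its changes were 0.67, 0.36 (adjusted p = 0.0231, edgeR) and 0.35 (adjusted p = 0.0194, edgeR), and its mean of 0.46 (SE 0.06, 1.37-fold, adjusted p = 1.97e-05, edgeR) was the smallest of the 7. The call of LCYB in red was lost without replicate 1 or 2 of red 6 h dark or replicate 2 of red 6 h light (0.15 without the last). In white the calls of LCYB and of LCYE (0.81, adjusted p = 0.0189, edgeR) were lost without replicate 1 or 2 of white 6 h dark or replicate 2 of white 6 h light, while their means over the colours were called without any single library. Scaling by library totals alone, which put the median of all genes at -0.10 in the mean comparison, also ended LCYB's calls in red (0.28, adjusted p = 0.0511) and white (0.22, adjusted p = 0.0910). Under that scaling 5694 of all genes were called higher and 8189 lower, in place of 7475 and 5966.

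**Figure D2:**
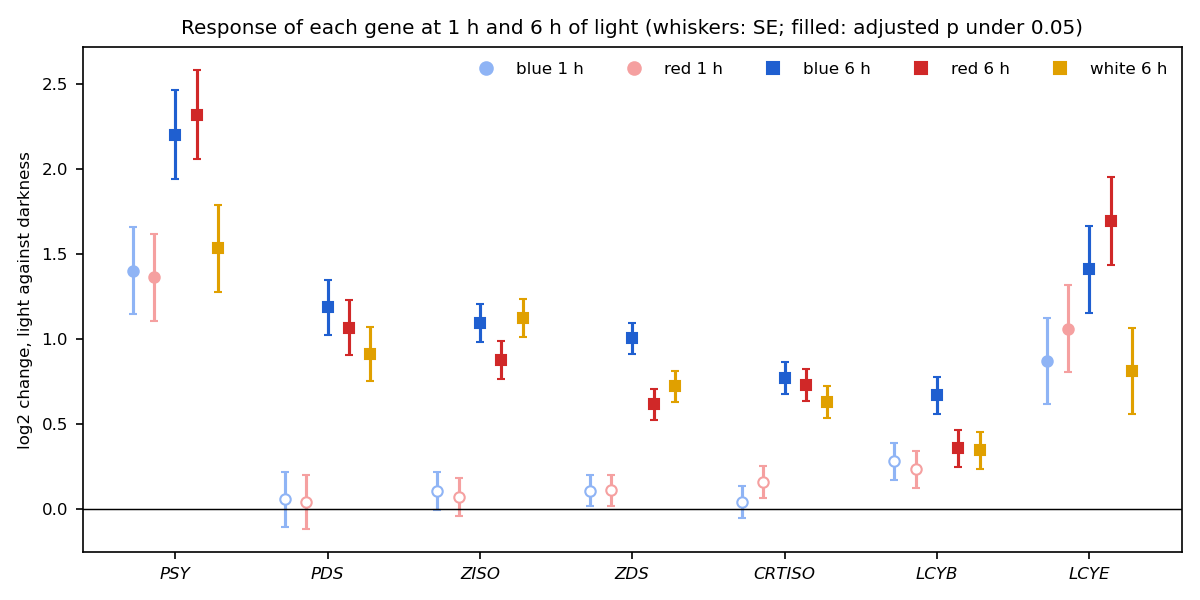
Log2 change of each transcript against darkness (circles, 1 h against 0 h; squares, 6 h against 6 h dark), coloured by light, with the SE as whiskers; filled symbols had an adjusted p under 0.05. At 1 h the filled symbols are those of PSY and LCYE, at 1.40 and 1.36 and at 0.87 and 1.06, and at 6 h every symbol is filled, from 0.35 for LCYB in white to 2.32 for PSY in red.

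The balance of the cyclase transcripts was compared within each library, where scaling cancels. The ratio of LCYE to LCYB was 0.622 and 0.583 in blue 6 h dark and 1.06 and 0.956 in blue 6 h light, 0.419 and 0.455 and then 1.03 and 1.16 in red, and 0.571 and 0.598 and then 0.773 and 0.836 in white. All 6 light values were above all 6 dark values. On the log2 scale the mean rose from -0.90 in darkness to -0.06 in light, a difference of 0.84 (exact two-sided permutation test within series, p = 0.00926, the smallest that this design allows), and it stayed between 0.81 and 0.87 without any single library. The ratio was about even in blue and red light and below 1 in white light in both libraries. At 1 h the mean log2 ratio was -0.50 in light and -1.25 at 0 h, a difference of 0.75 (exact two-sided permutation test, p = 0.0556, the smallest its 36 arrangements allow, so that this design cannot reach 0.05). The 1 h difference was 0.54 without replicate 2 of red 0 h, whose ratio of 0.256 was the lowest of all libraries.

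**Figure D3:**
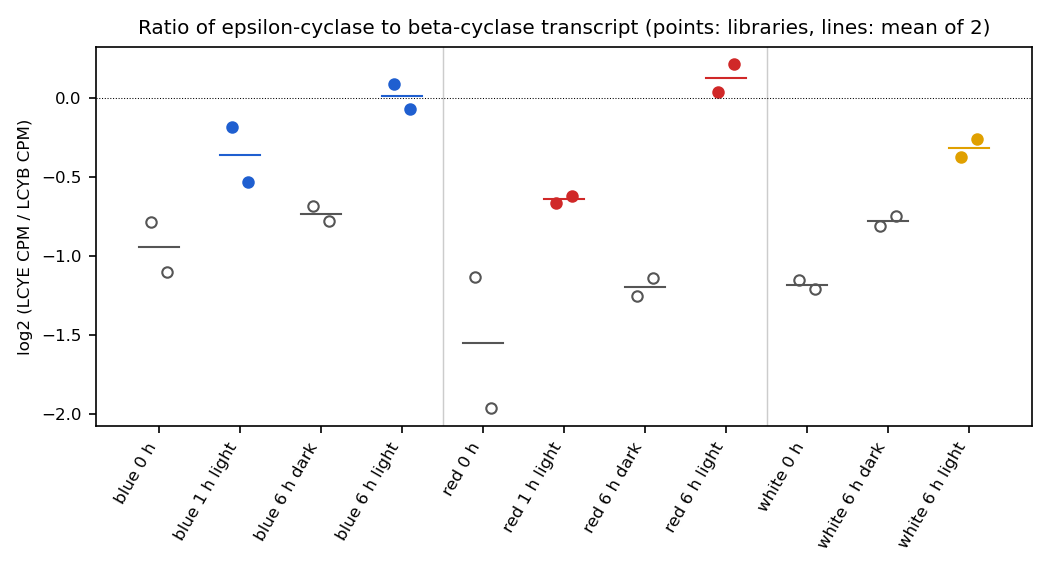
Log2 ratio of LCYE to LCYB in each library, by group, where 0 means equal CPM; points are libraries and lines the mean of 2. The 6 h light libraries lie between -0.37 and 0.22, with the white ones lowest at -0.37 and -0.26, and the 6 h dark libraries between -1.25 and -0.69.

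The 1 h and 6 h responses were compared within each colour. The 6 h response was larger than the 1 h response for 4 of 7 members in blue light, beside 15.4% of all genes called (9.15% higher), and for the same 4 in red light, beside 10.3% (5.82% higher). These were PDS, with a log2 difference of 1.13 in blue (adjusted p = 0.00468, edgeR) and 1.03 in red (adjusted p = 0.0113), ZISO with 0.99 and 0.80, ZDS with 0.90 and 0.51, and CRTISO with 0.73 and 0.57. For PSY the difference was 0.80 in blue (95% interval 0.04 to 1.56, adjusted p = 0.148, edgeR) and 0.96 in red (0.19 to 1.72, adjusted p = 0.106), which was not called and does not show that its response was complete at 1 h. For LCYE it was 0.54 (-0.22 to 1.30) and 0.63 (-0.13 to 1.40), and for LCYB 0.39 (0.06 to 0.72) and 0.13 (-0.20 to 0.45), none of them called. The blue differences of the 4 genes were called without any single library and also without the 4 blue-series libraries numbered 1. In red the number called fell to 1 without replicate 1 of red 0 h, replicate 1 of red 1 h or replicate 2 of red 6 h light, and to 2 without replicate 1 of red 6 h dark. It was 6 without replicate 2 of red 0 h, where PSY (1.31) and LCYE (1.07) joined. The 1 h and 6 h responses have dark controls of their own, 0 h and 6 h dark.

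No difference between the colours was called for any member. Between blue and red at 1 h, 0 of 7 were called beside 0% of all genes (1415 genes at an unadjusted p under 0.05, and 17 genes called by DESeq2). At 6 h, 0 of 7 were called between blue and red (0.0956% of all genes), 0 of 7 between blue and white (0.0608%) and 0 of 7 between red and white (2.72%). DESeq2 likewise called 0 of 7 in each. By edgeR 1, 1 and 2 members had an unadjusted p under 0.05, beside 1460, 1880 and 3922 of all 23011 genes. The widest gaps were between red and white, where the log2 response in red was higher by 0.88 for LCYE (95% interval 0.12 to 1.65, adjusted p = 0.218, edgeR) and by 0.79 for PSY (0.03 to 1.54, adjusted p = 0.273, edgeR). ZDS was higher in blue than in red by 0.39 (0.11 to 0.66, adjusted p = 0.513, edgeR), and LCYB by 0.31 (-0.02 to 0.64). The red against white intervals of PSY and LCYE reach past 1 on the log2 scale. Light of different colours came from separate series, each with its own dark libraries, and fluence is not given in the labels.

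Over the 22 libraries the members fell in with different neighbours. Likeness was the Pearson correlation of log2 CPM, computed against 13106 genes with a mean of at least 10 CPM, and since all libraries share the contrast of light and dark it describes these libraries only. The gene most like LCYE was PSY (r = 0.985), followed by AT2G05310 (r = 0.982). Most like PSY were AT2G35260 (r = 0.996) and AT1G27480 (r = 0.994), with LCYE in place 10. Among PDS, ZISO, ZDS and CRTISO the 6 pairs ran from r = 0.945 (ZDS and CRTISO) to 0.979 (PDS and ZISO), whereas PSY and PDS gave 0.881. Many other genes were as close: ZISO, CRTISO and ZDS took places 40, 109 and 136 among the genes most like PDS, and ZDS place 411 for CRTISO. The genes nearest to PDS were AT2G25830 (0.991) and OVA6 (0.989), an organellar prolyl-tRNA synthetase. ZISO was nearest to ATP-PRT1 (0.986), which opens histidine synthesis, and AT5G20060 (0.985). ZDS was nearest to BOU (0.983), a mitochondrial carrier, and SVR3 (0.977), a plastid translation elongation factor-like GTPase, and CRTISO to AT2G31170 (0.986) and AT5G46580 (0.985). LCYB stood furthest from the rest: its nearest genes were AT5G53050 (0.959) and RIBA3 (0.949), a riboflavin synthesis protein, and 191 genes passed r = 0.9 with it, compared with 720 for PSY and 1080 for PDS.

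**Figure D4:**
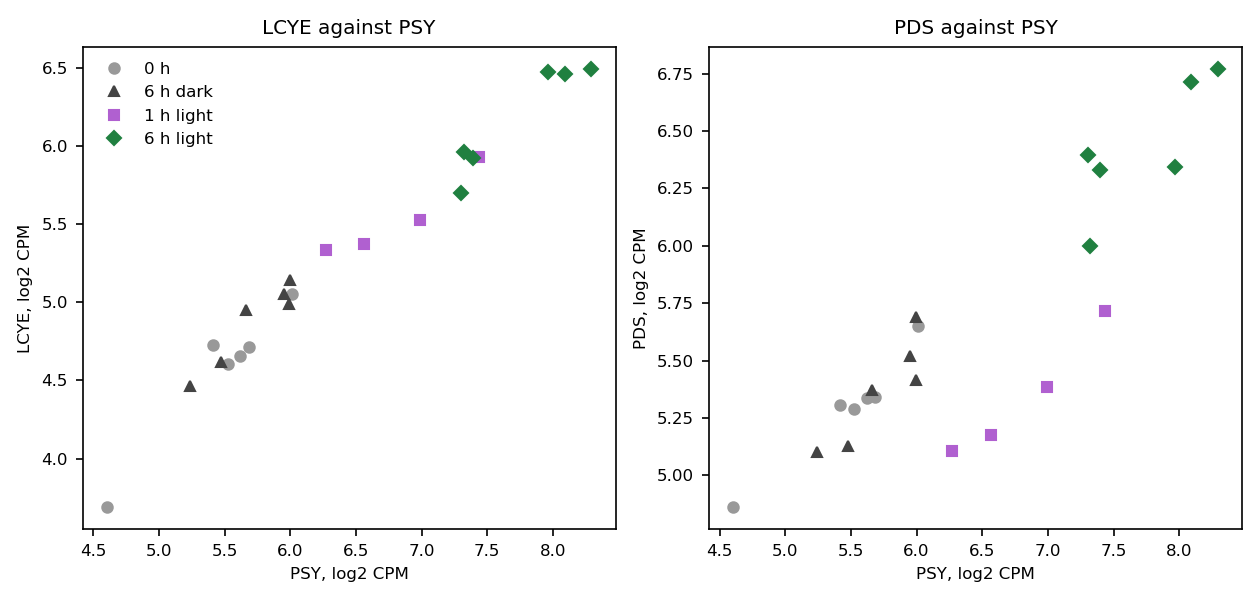
Log2 CPM of LCYE (left) and PDS (right) against PSY in the 22 libraries, marked by time and light. LCYE follows PSY through darkness, 1 h and 6 h of light, whereas at 1 h PDS is near its dark levels while PSY is above its own.

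Some counts may hold reads of a neighbour. In the TAIR10.1 annotation PSY (chr5:5659554-5662997, minus strand, 4 transcripts) overlaps GSTF12 (AT5G17220), a glutathione S-transferase of anthocyanin transport, on the opposite strand by 108 exon bases, 4.3% of its own. GSTF12 itself rose from at most 0.658 CPM in dark libraries to 20.2 to 58.7 CPM after 6 h of light, and was at 0.235 to 1.18 CPM at 1 h. The share of reads in the overlap was not tested. LCYE (chr5:23077120-23080096, plus strand, 1 transcript) shares 74 bases with NMT1 on the same strand, ZDS (chr3:1342455-1346387, plus strand) shares 115 with DRT102 on the other, and LCYB (chr3:3164075-3166038, minus strand) shares 157 with EMB2804 and 199 with AT3G02305 on the other. The 3 of these neighbours that were tested fell by 0.29, 0.35 and 0.28 in the mean 6 h comparison, and AT3G02305 did not pass the filter on low counts. PDS (chr4:8190190-8195320, minus strand), ZISO (chr1:3605512-3607580, minus strand) and CRTISO (chr1:2092946-2096784, minus strand) overlap no other gene.

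Upstream of PSY, the plastid MEP pathway, the isopentenyl diphosphate isomerases and a prenyl transferase supply geranylgeranyl diphosphate. Of these 10 genes, 7 were called higher and 0 lower at 6 h in the mean of the colours, beside 32.5% and 25.9% of all genes (median log2 change 0.73, and 0.02 over all genes). DXR, the reductoisomerase of the pathway, rose by 1.62, MDS by 1.39 and GGPPS11, the main plastid geranylgeranyl diphosphate synthase, by 1.47. HDR, which makes the final products of the MEP pathway, and the isomerases IPP1 and IPP2 were not called in the mean or in any colour at 6 h, with mean changes of -0.00, 0.04 and -0.05. At 1 h 0 of 10 were called in blue (8.13% of all genes) and 0 of 10 in red (4.61%), with medians of 0.30 and 0.18. Downstream, 6 of 7 xanthophyll genes were higher at 6 h and 0 lower (median 0.80), beside the same 32.5% and 25.9%. CYP97A3, which hydroxylates beta rings on the lutein branch, rose by 3.36, and the epoxidase ZEP and de-epoxidase VDE of the xanthophyll cycle rose by 1.28 and 1.31. In this list 4 of 7 were already higher after 1 h of blue light (5.35% of all genes) and 2 of 7 after 1 h of red light (3.72%). ZEP rose by 1.59 and 1.53.

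Among 7 genes for desaturation cofactors and partners of PSY, 5 were higher at 6 h and 2 lower (32.5% and 25.9% of all genes). Plastoquinone accepts the electrons of PDS and ZDS, and its solanesyl diphosphate synthases SPS2 and SPS1 rose by 1.77 and 0.98 and the prenyltransferase HST by 1.02. SPS1 was not called in red light alone (0.27). SPS1 and SPS2 were also higher after 1 h, by 2.07 and 1.80 in blue light and by 1.71 and 1.29 in red light. HPPD, which makes the homogentisate head group, fell by 1.76, and ORL fell by 0.38. OR, a chaperone-like partner of PSY, rose by 0.42 at 6 h and by 0.80 and 0.58 at 1 h in blue and red. Of 8 tested cleavage enzymes 3 were higher and 1 lower, near the shares of all genes (32.5% and 25.9%). CCD4, a dioxygenase that degrades carotenoids, rose by 1.34, NCED9 by 0.40 and CCD1 by 0.20, and NCED5 fell by 0.99. The mean of NCED5 joins opposite directions: it fell by 1.11 in blue light, fell by 2.60 in white light and had a change of 0.73 in red light that was not called, and the red minus white difference of 3.32 was called (adjusted p = 0.00222, edgeR). HPPD, ORL, OR, CCD1 and the 1 h values of single list genes were picked for naming after their values had been seen.

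Of 8 genes reported to regulate carotenoid genes, 4 were higher and 3 lower at 6 h (32.5% and 25.9% of all genes). PIF5, a phytochrome-interacting factor, rose by 1.07, PIF3 fell by 0.68 and RAP2.2, an ERF factor reported to bind ATCTA, fell by 0.57. The other 4 that changed were named after their values had been seen: PIF1, reported to repress PSY in darkness, rose by 0.26, PIF4 rose by 0.64, HY5, a bZIP factor that promotes light responses, rose by 0.84 and PAR1 fell by 1.62. HY5 was not called in red light alone at 6 h (0.05). At 1 h 2 of the 8 were higher and 2 lower in blue light, beside 8.13% of all genes called (5.35% higher). HY5 rose by 2.72 and PIF5 by 0.95, and PIF1 fell by 0.91 and PAR1 by 2.25. In red light at 1 h 3 were higher and 0 lower, beside 4.61% of all genes called (3.72% higher). HY5 rose by 3.10, PIF5 by 1.19 and PIF4 by 0.87, and PIF1 was at 0.03 (adjusted p = 0.950, edgeR). The blue minus red difference at 1 h was called for 0 of the 8, beside 0% of all genes. These are changes of transcript, and the proteins, whose turnover in light is known for the PIFs, were not measured.

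Markers of other cell types were followed beside the members. Of 8 root genes, none at 0 in any library, 5 were higher and 0 lower at 6 h in the mean of the colours. Over all genes 32.5% were higher and 25.9% lower. Among the root genes CASP2 rose by 0.40, EXPA7 by 1.58 and EXPA18 by 1.51. By colour 6 of 8 root genes were called higher in white (23.2% of all genes), 1 of 8 in blue (22.8%) and 0 of 8 in red light (17.6%). EXPA18 was at -0.40 in red. The difference between responses at 6 h was called for 0 of 8 in each pair of colours. The summed level of the root genes was 220 to 345 CPM in darkness and 235 to 378 CPM in light. Of 3 guard cell genes 2 were lower in the mean, beside 25.9% of all genes. MYB60 fell by 0.75 and KAT1 fell by 0.64, the latter called in white light alone among the colours. Guard cell genes had sums of 18.05 to 38.8 CPM in darkness and 11.1 to 26.0 CPM in light. Of 8 seed storage genes 0 were called in the mean, beside 58.4% of all genes. Their sum varied widely between libraries, from 7.82 to 579 CPM in darkness and from 4.89 to 821 CPM in light. The members summed to 198 to 323 CPM in darkness, 310 to 474 CPM at 1 h and 483 to 828 CPM at 6 h of light. The part of cell makeup in the rise of the members was not tested.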

How the data were processed

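The deposited values are, per the file headers, an unscaled read count per gene and library, in whole numbers for 22 libraries. Per the labels' protocols, TruSeq v2 libraries started from 4 µg of RNA. Per the submitters' processing notes the build is TAIR 10. Aligner, counting tool and strand use were not given in the sources used here. Gene structure and upstream sequence came from RefSeq TAIR10.1, and the table itself holds no coordinates. Genes were filtered with filterByExpr (minimum count 10), which kept 23011 of 33602 genes and 99.99% of counts. edgeR 4.0.16 (R 4.3.3, limma 3.58.1) was fitted with TMM factors and 11 group means over all 22 libraries (11 residual degrees of freedom), with Benjamini-Hochberg adjustment over all genes kept. SEs are the log2 change over the square root of F. The test was checked on simulated counts. DESeq2 1.42.0 and the other settings of the closing section were alternatives. The members, gene lists and tests were chosen with earlier results of these data known. Besides the members, the genes named are the 2 most correlated with each member and the 3 called genes with the smallest adjusted p of each list. List genes outside that rule (HDR, IPP1, IPP2, and those named for 1 colour or at 1 h) were named after their values were seen. Replicate pairs differed by more than sampling noise (chi-square of 14.7 to 143 per degree of freedom), so each library was counted once.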

Additional observations from a re-analysis of the deposited data

Results flagged for a closer look

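The 6 h response differed from the 1 h response for 4 members in both colours, by a test of the difference itself (edgeR quasi-likelihood, adjusted over all genes). In blue light the log2 difference was 1.13 for PDS (adjusted p = 0.00468), 0.99 for ZISO (adjusted p = 0.00146), 0.90 for ZDS (adjusted p = 8.90e-04) and 0.73 for CRTISO (adjusted p = 0.00279). In red light it was 1.03 for PDS (adjusted p = 0.0113), 0.80 for ZISO (adjusted p = 0.00654), 0.51 for ZDS (adjusted p = 0.0219) and 0.57 for CRTISO (adjusted p = 0.0149). Over all genes 15.4% were called in blue and 10.3% in red. The 4 called members are the desaturases and isomerases between phytoene and lycopene. All 7 members had positive differences in both colours, so the sign does not set these 4 apart. That of PSY, 0.80 in blue and 0.96 in red, was larger than that of CRTISO but was not called. Its SE in blue was 0.35, against 0.13 for CRTISO.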

How the results depend on the processing

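At 6 h, 7 of 7 members were called in blue and in the mean of the colours under each alternative, and 6 to 7 in red and 5 to 7 in white without single libraries. In blue at 1 h the main 2 calls became 1 with RLE size factors, with library totals alone or with a fit of the libraries of the contrast, 0 without the 4 blue-series libraries numbered 1, and 1 to 2 without single libraries. In red at 1 h the 2 calls became 1 without those 4 libraries, 0 in a fit of the libraries of the contrast, and 0 to 2 without single libraries. For the difference between 6 h and 1 h in red, 4 calls became 2 in a fit of the libraries of the contrast and 1 to 6 without single libraries. Between the 0 h groups, 0 calls became 0 to 1. The LCYE to LCYB difference was 0.81 to 0.87 at 6 h and 0.54 to 0.96 at 1 h without single libraries. No called direction reversed. The causes were not tested. Over all genes, calls in blue at 1 h went from 1870 to 837 without the 4 libraries and to 808 in a fit of the libraries of the contrast. DESeq2 called 141 (edgeR 22) between blue and red, 189 (14) between blue and white and 1369 (627) between red and white at 6 h. Same-numbered libraries of a series had deviations from group means that correlated at 0.07 to 0.52 (median 0.26). They were over 0.1 in 14 of 15 pairs (0.33 to 0.52 in the blue series). Between series, same-numbered libraries correlated at -0.06 to 0.42 (median 0.18), over 0.1 in 30 of 40 pairs. Same-numbered libraries thus tended to deviate together both within and between series, and the labels do not say what a number marks. A replicate block left the members called at 2 (blue and red, 1 h), 7 (6 h) and 4 (6 h against 1 h), with exact p = 0.0312 and 0.125 for the cyclase ratio at 6 h and 1 h, and moved all-gene calls between the 0 h groups from 0 to 187. In the simulated counts the blue 1 h comparison recovered 11% of changes of 0.5 on the log2 scale, a share that does not carry over to single members.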
